A study of Mus musculus with 6 samples.

Results

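Described here are 9 mouse Wnt ligand genes (Wnt4, Wnt5a, Wnt5b, Wnt6, Wnt7b, Wnt9b, Wnt10a, Wnt11 and Wnt16) and Ror2, taken by symbol from the 49492 genes of the deposited table. All 10 were found and all 10 were among the 19284 genes tested. Wnt proteins are secreted, lipid-modified signals that bind Frizzled receptors on nearby cells. One branch stabilizes beta-catenin and switches on target genes, and another acts through co-receptors such as the tyrosine kinase ROR2 to steer cell polarity and movement. In the palate, the WNT5A signal and its receptor ROR2 are known to direct migration of the mesenchyme, and mice that lack either gene develop cleft palate.

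RNA came from palatal shelves, the outgrowths that fuse into the roof of the mouth, dissected from C57BL mouse embryos at E14.5, when the shelves meet and fuse. The 3 control libraries are from PRMT1 fl/fl embryos, whose Prmt1 alleles carry loxP sites, and the 3 deletion libraries are from Wnt1-Cre; PRMT1 fl/fl embryos, which have the same floxed alleles and, in addition, Cre recombinase driven by regulatory sequence of Wnt1, active in the neural crest. Most palatal mesenchyme descends from the neural crest and the palatal epithelium does not, so epithelial cells keep Prmt1 in both groups. No library carried Cre without floxed alleles. Prmt1 encodes an enzyme that places asymmetric dimethyl marks on arginines of many proteins, and the series asks which genes change when it is lost.

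Libraries are named after the start of each deposited column's name (cont212, cont213 and cont220 for control, mut208, mut211 and mut221 for deletion) and held 44919889 to 50022829 estimated counts. The labels do not say that each came from a separate embryo, so a p-value here measures only the spread of these 6 libraries. Prmt1 itself was at 246 to 258 CPM (counts scaled to library size) in controls and 201 to 217 CPM in deletion libraries. Libraries cont212 and cont213 had 15.5 and 16.0 CPM of Xist, the RNA of the inactive X chromosome, and the other 4 libraries had 3384 to 4487 CPM, so cont220 was the only control of the same sex as the deletion libraries. Embryonic beta-globin RNA relative to adult beta-globin RNA, a ratio that falls with developmental age, was also lower in cont212 and cont213 (0.0946 and 0.0779) than in the others (0.191 to 0.320). Each member is therefore also given with cont220 as the only control.

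Wnt5a was lower and Ror2 was higher in the palatal shelves with Prmt1 deleted. In edgeR's quasi-likelihood test, with p-values adjusted by Benjamini-Hochberg over all tested genes, these 2 of the 10 members passed an adjusted p of 0.05, 1 in each direction. Over all tested genes 7.01% passed, 3.65% higher and 3.37% lower, and 6 of 10 members against 22.5% of genes had an unadjusted p under 0.05. The groups did not overlap for 4 members, Wnt5a and Wnt10a below the controls and Wnt5b and Ror2 above them, against 27.5% of all tested genes. Of the 10 fold-change estimates 7 lay below 0, with a median log2 fold change of -0.22, against -0.000135 over all tested genes. With 1 library left out, Wnt5a still passed without cont212 (edgeR adjusted p = 0.00632) and without mut221 (0.0354), and Ror2 without cont220 (0.0330). No member passed without cont213 (1.81% of all genes did), without mut208 (2.77%) or without mut211 (3.59%), with 5 members at an unadjusted p under 0.05 by edgeR in each. Against cont220 alone 0 members passed (0.435% of genes, 3 members at an unadjusted p under 0.05), and with embryo sex as a covariate again 0 (0.669% of genes, 4 members at an unadjusted p under 0.05). The share of all genes at an unadjusted p under 0.05 was taken only in the full comparison (22.5%). In the other fits those counts of members therefore have no background to be read against. The DESeq2 Wald test on all 6 libraries called 5 members, adding Wnt5b, Wnt7b and Wnt10a, where it called 11% of all genes, and limma voom called only Wnt5a among the members and 6.07% of genes.

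**Figure D1:**
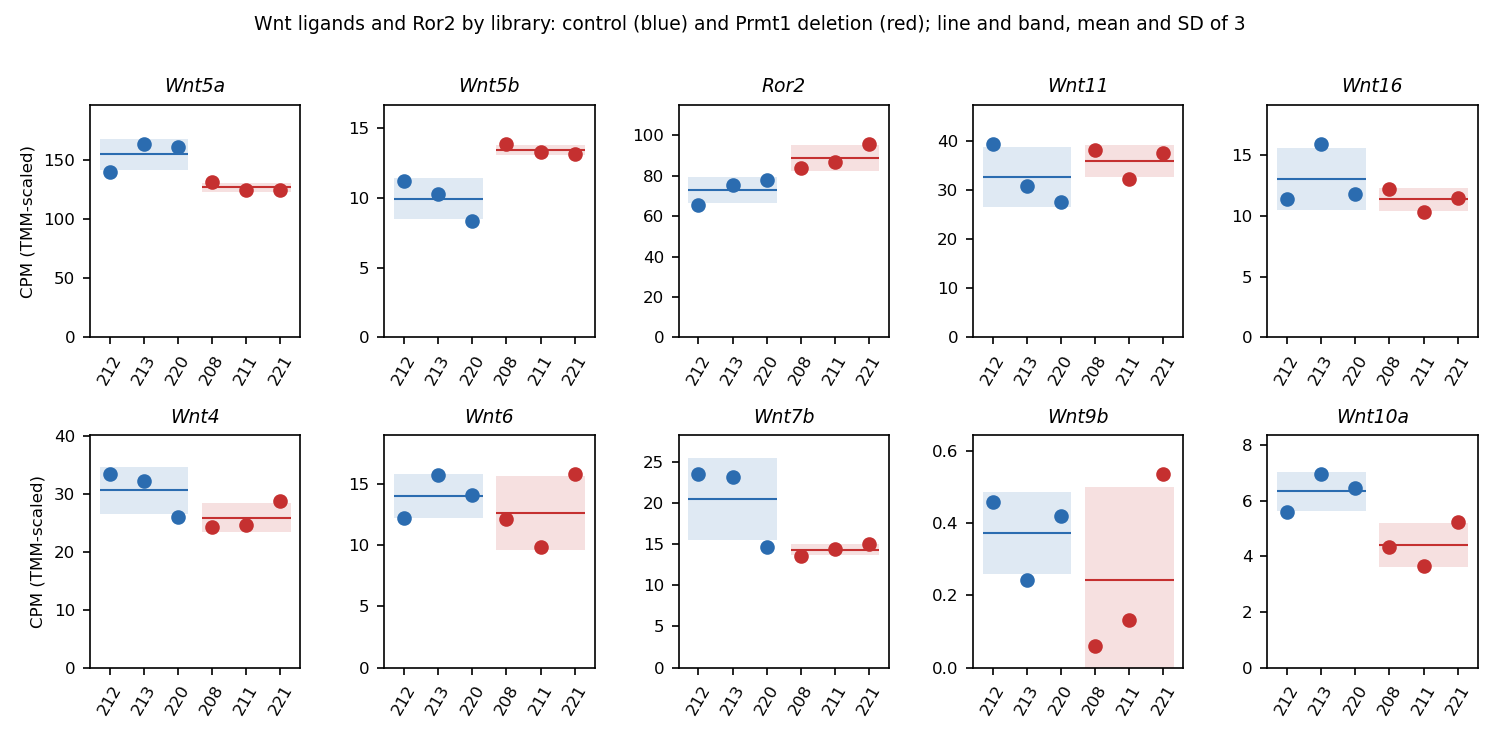
CPM (scaled by TMM, axes from 0) of the 10 members in each library, control in blue and Prmt1 deletion in red, with a line and band for the mean and SD of 3 libraries (the band of Wnt9b is cut at 0). Wnt5a, Wnt5b, Ror2 and Wnt10a separate the groups, while for Wnt4 and Wnt7b cont220 lies among the deletion libraries.

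Wnt5a, the main ligand of the polarity branch in palatal mesenchyme, lies on chromosome 14 (28504750 to 28527448, GRCm38, the assembly that mm10 names, plus strand). It measured 140.4, 164 and 161 CPM in controls cont212, cont213 and cont220 and 131, 125 and 125 CPM in deletion libraries mut208, mut211 and mut221. Every deletion library lay below every control, and the deletion libraries lay closer together than the controls. Controls averaged 155.3 ± 12.96 and deletion libraries 127 ± 3.63 CPM (SD over 3 libraries), for a log2 fold change of -0.29 ± 0.06 (SE, 95% interval -0.43 to -0.15; edgeR adjusted p = 0.0218), or 1.22-fold lower. With cont220 as the only control, the log2 fold change was -0.34 (edgeR adjusted p = 0.117), a fit in which all the spread comes from the deletion libraries. The call was lost without cont213, cont220, mut208 or mut211 (log2 fold changes -0.25 to -0.31, edgeR adjusted p = 0.128, 0.0598, 0.0567 and 0.0793).

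An antisense gene, Gm2670, shares 358 exonic bases with Wnt5a. It averaged 4.20 CPM, and since the strand setting is not given in the sources used here, reads of the shared bases cannot be assigned to a strand.

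Ror2 encodes the receptor tyrosine kinase that WNT5A uses as a co-receptor (chromosome 13, 53109312 to 53286124, minus strand). It measured 65.7, 75.3 and 78.0 CPM in controls cont212, cont213 and cont220 and 83.9, 86.8 and 95.9 CPM in deletion libraries mut208, mut211 and mut221. Every deletion library lay above every control, with cont220 the nearest to them. Controls averaged 73.0 ± 6.48 and deletion libraries 88.8 ± 6.25 CPM (SD over 3 libraries), for a log2 fold change of 0.28 ± 0.07 (SE, 95% interval 0.12 to 0.45; edgeR adjusted p = 0.0439), or 1.22-fold higher. Against cont220 alone the log2 fold change was 0.19 (edgeR adjusted p = 0.473), and with a single library left out Ror2 passed only without cont220 (0.33, edgeR adjusted p = 0.0330). The related receptor gene Ror1, picked after its values were seen, averaged 66.8 CPM in controls and 69.0 CPM after deletion, with a log2 fold change of 0.05 (95% interval -0.13 to 0.23).

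The ratio of ligand to receptor within a library needs no scaling between libraries. Divided by exon length, Wnt5a stood at 1.16, 1.18 and 1.12 times Ror2 in controls cont212, cont213 and cont220 and at 0.850, 0.783 and 0.707 times Ror2 in deletion libraries mut208, mut211 and mut221. Wnt5a thus had the higher level per kb of exon in all 3 controls and Ror2 in all 3 deletion libraries. Which gene is higher depends on the annotated exon lengths used (7823 bases for Wnt5a and 4242 for Ror2), since the transcripts in use were not measured. The shift of the ratio between the groups does not depend on these lengths. This ratio was formed after both values had been seen, so it describes the size of the shift and adds no separate evidence for it.

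Wnt5b, the closest relative of Wnt5a (chromosome 6, 119432531 to 119544347, minus strand), was at 11.2, 10.3 and 8.34 CPM in controls cont212, cont213 and cont220 and at 13.9, 13.2 and 13.1 CPM in deletion libraries mut208, mut211 and mut221. The groups did not overlap, and cont220 was the lowest library. Controls averaged 9.94 ± 1.46 and deletion libraries 13.4 ± 0.386 CPM (SD over 3 libraries), and the log2 fold change of 0.43 ± 0.12 (SE, 95% interval 0.17 to 0.69; edgeR adjusted p = 0.0532) missed the threshold. The DESeq2 Wald test placed it past the threshold (adjusted p = 0.0146), as did edgeR without cont212 (log2 fold change 0.53, adjusted p = 0.0435). Against cont220 alone the estimate was 0.69 with edgeR adjusted p = 0.116. Per kb of exon, Wnt5a stood at 4.26, 5.42 and 6.56 times Wnt5b in the controls and at 3.22, 3.21 and 3.22 times in the deletion libraries. This ratio also was formed after both values had been seen and adds no separate evidence. Fbxl14 lies on the opposite strand within the span of Wnt5b but shares 0 exonic bases with it.

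Wnt11 and Wnt16 overlapped between groups. Wnt11 acts in cell movement and branching morphogenesis (chromosome 7, 98835112 to 98855195, plus strand). It measured 39.4, 30.7 and 27.6 CPM in controls and 38.00, 32.2 and 37.4 CPM after deletion, with a log2 fold change of 0.14 (95% interval -0.15 to 0.43; edgeR adjusted p = 0.592). Library cont212 was the highest of the 6 and cont220 the lowest, and the log2 fold change was 0.03 without cont220, 0.30 without cont212 and 0.38 against cont220 alone. Wnt16, a ligand known for its part in cortical bone, lies on chromosome 6 (22288227 to 22298522, plus strand). It was at 11.4, 15.9 and 11.8 CPM in controls and 12.2, 10.4 and 11.5 CPM after deletion (log2 fold change -0.20, 95% interval -0.50 to 0.10; edgeR adjusted p = 0.438), and only cont213 stood apart. Its log2 fold change was -0.03 without cont213 and -0.06 against cont220 alone.

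For a view of the start regions, the 250 bases before each annotated start were read from RefSeq (GRCm38.p6), which held 7 of the 10 members with 10 starts. Both strands were searched for CTTTGAT, the core letters to which TCF and LEF factors of the beta-catenin branch bind, read as ATCAAAG on the other strand. The letters occurred in 2 of the 10 windows, 1 of the 3 of Wnt5b and 1 of the 2 of Wnt11, and in 3.21% of the 32851 windows of all genes. Counts are per gene, so which start was in use was not measured, and a match is only a match of letters. The 3 windows below are those of Ror2, the called member with an entry, and the 2 that hold the letters, shown in capitals. Each is given 5' to 3' on the gene's own strand, for Ror2 from chr13:53286125-53286374 (minus strand), for Wnt5b from chr6:119449387-119449636 (minus strand) and for Wnt11 from chr7:98834862-98835111 (plus strand).
Ror2: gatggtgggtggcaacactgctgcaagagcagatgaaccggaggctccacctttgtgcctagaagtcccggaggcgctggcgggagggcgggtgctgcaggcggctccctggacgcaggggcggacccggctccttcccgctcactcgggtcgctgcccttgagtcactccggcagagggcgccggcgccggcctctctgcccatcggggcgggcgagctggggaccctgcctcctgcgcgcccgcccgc
Wnt5b: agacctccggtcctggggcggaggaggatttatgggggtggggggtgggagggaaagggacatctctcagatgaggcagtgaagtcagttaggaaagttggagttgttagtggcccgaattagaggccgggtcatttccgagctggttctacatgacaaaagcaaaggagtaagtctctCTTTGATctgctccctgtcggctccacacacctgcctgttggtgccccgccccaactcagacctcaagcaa
Wnt11: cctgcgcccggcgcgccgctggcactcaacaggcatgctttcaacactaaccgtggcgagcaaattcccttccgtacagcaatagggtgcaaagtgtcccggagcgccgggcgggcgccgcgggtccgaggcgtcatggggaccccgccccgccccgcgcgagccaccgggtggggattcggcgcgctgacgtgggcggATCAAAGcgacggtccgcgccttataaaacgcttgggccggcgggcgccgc
The Ror2 window holds no match and is 73.2% G and C. The Wnt5b window, before the annotated start nearest the 3' end of the gene, is 55.6% G and C and the Wnt11 window 70.8%.

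Wnt4, Wnt6, Wnt7b, Wnt9b and Wnt10a are ligands that embryonic surface and oral epithelium is known to make. None of the 5 passed by edgeR, 3 of them had an unadjusted p under 0.05 (22.5% of all tested genes), and by the DESeq2 Wald test Wnt7b and Wnt10a passed (11% of all tested genes). All 5 estimates lay below 0, as did 50% of those of all tested genes.

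Wnt10a, a ligand needed for normal teeth and hair (chromosome 1, 74791516 to 74804179, plus strand), was the member of these 5 whose groups did not overlap. It measured 5.60, 6.97 and 6.45 CPM in controls cont212, cont213 and cont220 and 4.32, 3.66 and 5.22 CPM in deletion libraries mut208, mut211 and mut221. The log2 fold change was -0.53 ± 0.17 (SE, 95% interval -0.89 to -0.16; edgeR adjusted p = 0.0858), and -0.55 against cont220 alone. It passed without mut221, its highest deletion library (-0.67, edgeR adjusted p = 0.0339). Library cont220 thus stood with the other controls for this gene. Wnt6 is its neighbour, on the same strand and 6193 bases away (74771892 to 74785322). Wnt6 measured 12.2, 15.8 and 14.1 CPM in controls and 12.2, 9.86 and 15.8 CPM after deletion, with overlapping groups and a log2 fold change of -0.15 (95% interval -0.53 to 0.22; edgeR adjusted p = 0.658). The Wnt6 estimate was -0.01 without mut211, -0.35 without mut221 and -0.16 against cont220 alone. For both genes mut211 was the lowest library. Per kb of exon, Wnt10a was 0.408, 0.392 and 0.405 times Wnt6 in controls and 0.316, 0.330 and 0.293 times in deletion libraries, so the ratio differed between the groups by more than it varied within either. This ratio, too, was formed after the values had been seen.

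Wnt7b and Wnt4 had a different pattern, with cont220 among the deletion libraries. Wnt7b, an epithelial ligand of lung and skin development (chromosome 15, 85535437 to 85582473, minus strand), was at 23.6, 23.2 and 14.7 CPM in controls cont212, cont213 and cont220 and at 13.6, 14.4 and 15.02 CPM in deletion libraries mut208, mut211 and mut221. The log2 fold change was -0.52 ± 0.17 (SE, 95% interval -0.90 to -0.14; edgeR adjusted p = 0.108). Without cont220 it was -0.71 (edgeR adjusted p = 0.00178), and with cont220 as the only control it was -0.03 (edgeR adjusted p = 0.948). Wnt7b therefore separated libraries cont212 and cont213, which differ from the rest in sex and globin ratio, from all 4 other libraries. AU022754, an antisense gene at a mean of 1.66 CPM, shares 324 exonic bases with it.

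Wnt4, a ligand best known from kidney and gonad (chromosome 4, 137277489 to 137299726, plus strand), was at 33.5, 32.3 and 26.1 CPM in controls and 24.3, 24.6 and 28.8 CPM after deletion. Library cont220 again lay inside the deletion range. The log2 fold change of -0.24 ± 0.10 (SE, 95% interval -0.47 to -0.01; edgeR adjusted p = 0.202) became -0.35 without cont220 (edgeR adjusted p = 0.0499) and -0.01 against cont220 alone (edgeR adjusted p = 0.991).

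Wnt9b, a ligand of facial ectoderm whose loss gives cleft lip and palate in mice, was near the lower end of what these libraries measure (chromosome 11, 103727364 to 103749821, minus strand). It had 23, 12 and 19 estimated counts in controls cont212, cont213 and cont220 and 3, 6 and 24 in deletion libraries mut208, mut211 and mut221. Library mut221 was the highest library and the other deletion libraries were the lowest. The log2 fold change of -0.63 had a 95% interval of -2.12 to 0.86 (edgeR adjusted p = 0.6495), so neither a fall nor a rise was detected. The estimate was -0.16 without mut208, -1.94 without mut221 and -0.79 against cont220 alone.

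**Figure D2:**
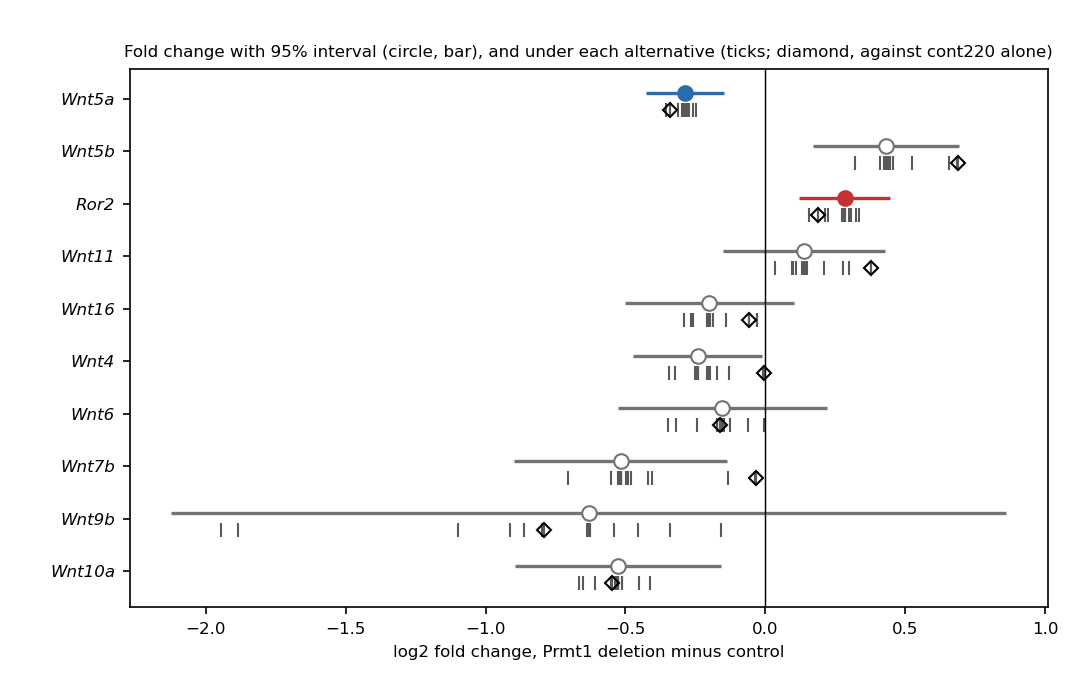
Each member's log2 fold change, deletion over control. Circles and bars give the estimate and 95% interval, filled where the adjusted p was under 0.05, ticks give the estimate under each alternative setting and diamonds the estimate against cont220 alone. The diamonds of Wnt7b and Wnt4 lie at -0.03 and -0.01, while those of Wnt5a and Wnt5b lie at -0.34 and 0.69.

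Epithelial markers were also lower in the deletion libraries. Of 27 markers of epithelium 14 fell and 0 rose (51.9% by edgeR, against 7.01% of all tested genes). Their summed level was 2813 to 3094 CPM in controls and 1790 to 2232 CPM in deletion libraries, with none at 0 in all libraries. In bulk tissue, fewer cells of a type and less RNA per cell cannot be told apart. Set against the summed epithelial markers, Wnt10a was at 1.81, 2.26 and 2.29 CPM per 1000 marker CPM in controls and at 2.42, 1.88 and 2.34 in deletion libraries, with overlapping groups. Wnt7b was at 7.62, 7.51 and 5.23 in controls and 7.62, 7.39 and 6.73 in deletion libraries on this scale, again overlapping. Wnt4 was at 10.8, 10.46 and 9.26 in controls and 13.6, 12.7 and 12.9 in deletion libraries, so on this scale every deletion library lay above every control. Wnt6 and Wnt9b overlapped on both scales.

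Over the 10 members, 4 had groups that did not overlap on the marker scale, all higher in the deletion libraries (Wnt4, Wnt5b, Wnt11 and Ror2), against 74.2% of all tested genes, since a falling denominator raises most ratios. By an exact two-sided permutation test these 4 reached p = 0.1, the smallest that 3 against 3 libraries allow. The summed markers differed by -0.60 on the log2 scale, so the division raises the log2 difference of every gene by that same amount, and the sign on the marker scale holds nothing on a gene beyond its CPM difference and this shift. The part of epithelial content in the CPM values was not tested.

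**Figure D3:**
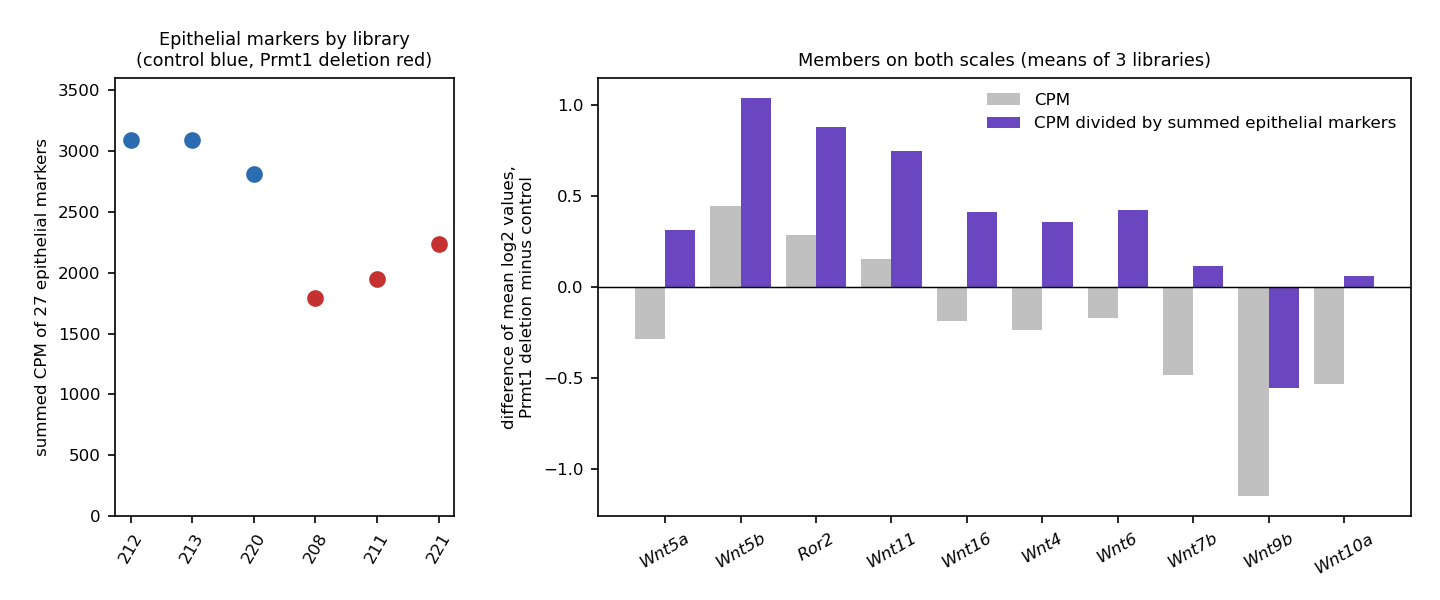
Left, summed CPM of 27 epithelial markers in each library, axis from 0. Right, difference of mean log2 values (Prmt1 deletion minus control) for each member in CPM (grey) and in CPM divided by the summed epithelial markers (purple). The sum is 1790 to 2232 CPM in deletion libraries, under every control, and each purple bar is the grey one moved up by the same amount.

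Markers of mesenchyme, in which Wnt5a and Ror2 are known to be made, were counted in the same way. Of 15 such markers 0 rose and 1 fell by edgeR. The DESeq2 Wald test called 2 and limma voom 0, and 4 had an unadjusted p under 0.05 by edgeR. For the markers here and below, 7.01% of all tested genes passed by edgeR, 11% by the DESeq2 Wald test and 6.07% by limma voom. An unadjusted p under 0.05 by edgeR was held by 22.5% of all tested genes. At 6.67% by edgeR the mesenchyme list is near that share, 7.01%, so its call is no result about mesenchyme. The summed level of the 15 markers was 9255 to 10280 CPM in controls and 8471 to 9263 CPM in deletion libraries. These ranges overlapped only through cont220 (9255) and mut211 (9263). The collagen genes Col1a2, which is the marker that fell, and Col3a1 weigh most in the sum. Of 18 cartilage markers 10 rose (55.6% by edgeR), with a summed level of 580 to 813 CPM in controls and 1064 to 1237 in deletion libraries. Among 16 skeletal muscle markers 9 rose (56.2%), with 588 to 640 and 1009 to 1679 CPM. Among 11 bone markers tested 3 fell (27.3%), with 1189 to 1644 and 402 to 627 CPM. For bone the DESeq2 Wald test called 10 and limma voom 7 of the 11, for cartilage 13 and 11, and for muscle 13 and 13. The part of these cell types in the rise of Ror2, a gene also made by cartilage, and in the fall of Wnt5a was not tested. Of 8 neuron and glia markers 2 rose by edgeR and limma voom and 6 passed by the DESeq2 Wald test, with summed levels of 49.2 to 67.8 and 67.8 to 108 CPM. Of 8 tooth germ markers 1 rose (2 passed by the DESeq2 Wald test), with 404 to 565 and 526 to 655 CPM, and of 6 endothelial markers 0 passed by edgeR or limma voom and 1 by the DESeq2 Wald test (4 at an unadjusted p under 0.05), with 382 to 393 and 348 to 380 CPM. None of these markers that was tested was at 0 in every library.

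Levels of different genes are compared here per kb of annotated exon, which can differ from the length of the transcripts in use. As CPM per kb of exon in the controls, Wnt5a came first at 19.9 ± 1.66, followed by Ror2 at 17.2 ± 1.53 (SD, n = 3 here and below). These neighbours overlapped in their library ranges. Wnt11 (7.87 ± 1.47), Wnt4 (7.30 ± 0.955) and Wnt6 (6.40 ± 0.818) came next, each overlapping its neighbour, and lay below every control value of Ror2. Wnt7b (4.19 ± 1.02), Wnt5b (3.74 ± 0.548), Wnt16 (2.99 ± 0.578) and Wnt10a (2.57 ± 0.280) formed a run in which each overlapped the next. Wnt9b, at 0.0825 ± 0.0253, stood far below. In the deletion libraries Ror2 (20.9 ± 1.47) was above Wnt5a (16.3 ± 0.464), and Wnt5b (5.05 ± 0.145) was above Wnt7b (2.93 ± 0.142), with the rest in the same order.

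**Figure D4:**
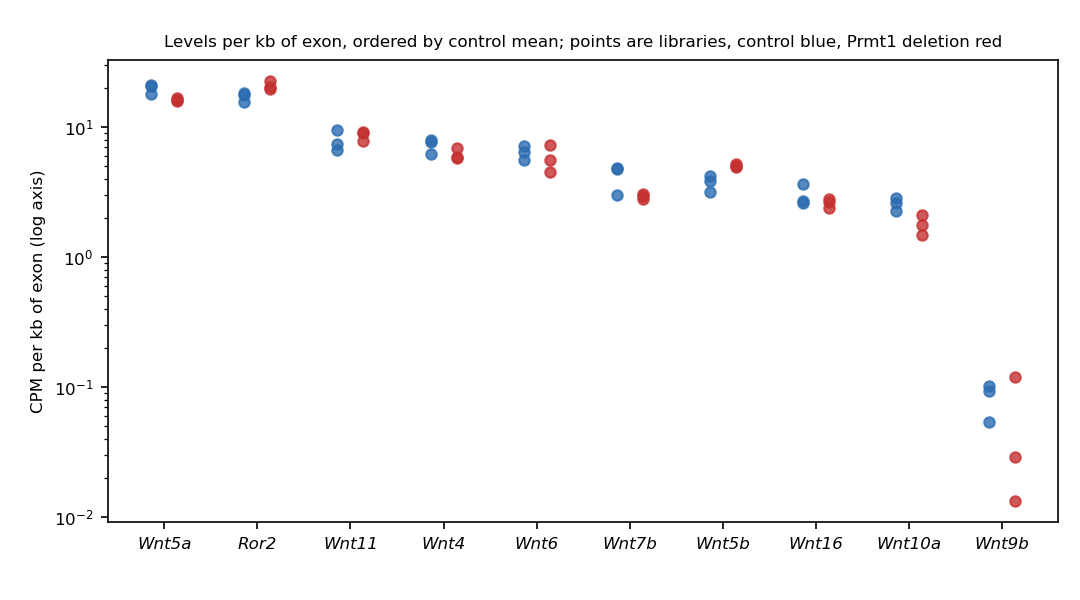
CPM per kb of exon (log axis) of the 10 members in each library, ordered by control mean, control in blue and Prmt1 deletion in red. Wnt5a and Ror2 lead at 15.5 or more in every library and Wnt9b lies at 0.119 or less.

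The mouse has 19 Wnt ligand genes, of which 15 were tested. The summed level of all 19 per kb was 69.4 ± 3.85 in controls and 61.5 ± 4.16 in deletion libraries. The sums did not overlap, so the share of a ligand with an unchanged level is higher in the deletion libraries. Wnt5a made up 28.6% ± 2.19 of this sum in controls and 26.5% ± 2.00 in deletion libraries, with overlapping groups. The share of Wnt5b was 5.39% ± 0.770 in controls and 8.25% ± 0.636 in deletion libraries, and that of Wnt10a 3.70% ± 0.301 and 2.89% ± 0.320, both without overlap. Outside the members, the shares of Wnt9a (6.43% in controls and 7.84% in deletion libraries) and Wnt10b (6.11% and 3.57%) did not overlap either. Among the 6 other ligands tested, Wnt10b fell (edgeR) and 0 rose. It measured 10.3, 16.1 and 16.9 CPM in controls and 6.63, 6.70 and 9.15 CPM after deletion (log2 fold change -0.95, edgeR adjusted p = 0.0287), and it passed in 10 of 17 alternative settings and in 2 of 6 with a single library left out. Wnt1, whose regulatory sequence drives the Cre, was not tested because it had only 0 to 4 counts in any library.

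Of 88 other Wnt pathway genes tested, in 7 lists by role, 9 rose and 6 fell (17% against 7.01% of all tested genes), with a median log2 fold change of 0.01. Like the members, these lists were chosen with earlier results of these data known, so the 17% describes them and adds no separate evidence. Receptors held 6 of the 15 calls, 4 higher and 2 lower of 18. Lgr5, an R-spondin receptor, was at 50.2, 39.6 and 53.4 CPM in controls and 81.3, 82.4 and 86.3 CPM after deletion (log2 fold change 0.80, edgeR adjusted p = 0.00232). Its relative Lgr6 fell (-0.60, edgeR adjusted p = 0.0141), and the Frizzled receptor gene Fzd8 rose (0.56, edgeR adjusted p = 0.00431). The other receptor calls, named after their values were seen, were the Frizzled genes Fzd4 (0.32) and Fzd2 (0.20), which rose, and Fzd1, which fell (-0.23). Among 9 genes of secretion and extracellular enhancement, 1 rose and 1 fell. The riser was Rspo3, an R-spondin that strengthens Wnt signals through LGR receptors, at 28.6, 29.4 and 27.8 CPM in controls and 40.7, 38.3 and 39.5 CPM after deletion (log2 fold change 0.47, edgeR adjusted p = 0.00234). Gpc4, a cell-surface glypican, fell (-0.32, edgeR adjusted p = 0.00706). Rspo3 and Lgr5 each passed in 16 of 17 alternative settings, Gpc4 and Fzd8 in 14 and Lgr6 in 12, where Wnt5a passed in 10 and Ror2 in 7. Most of these settings, here and below, leave the sex difference between the groups as it is. With embryo sex as a covariate only 1 of the 88 pathway genes passed, where 0.669% of all tested genes did.

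Of 16 antagonists tested 1 rose and 1 fell: Sfrp5, a secreted Frizzled-like inhibitor, went from a range of 0.517 to 1.496 CPM to one of 1.86 to 3.74 CPM, and Wif1, a Wnt-binding inhibitor, fell from 42.02 to 55.2 CPM to 21.6 to 33.6 CPM. Each passed in 10 of 17 alternative settings, and with a single library left out Sfrp5 passed in 2 of 6 and Wif1 in 3 of 6. Dkk1, named after its values were seen, had the largest estimate of the 16 (log2 fold change -2.74) without passing (edgeR adjusted p = 0.124). It was at 6.62 to 31.1 CPM in controls and 1.52 to 3.26 CPM in deletion libraries. Of the 16 estimates 11 lay below 0 (50% over all tested genes). The DESeq2 Wald test called 6 of the 16 (11% of all genes) and limma voom 2 (6.07%). Of 15 components of the beta-catenin branch 2 rose and 0 fell, namely the transcription factor gene Tcf7l2 (log2 fold change 0.48) and the co-activator gene Bcl9 (0.24). Tcf7l2 passed in 14 of 17 alternative settings and in 6 of 6 with a library left out, and Bcl9 in 10 of 17 and 2 of 6. Tcf7, named after its values were seen, had the largest estimate of the 15, in the other direction (log2 fold change -1.07). It just missed the threshold (edgeR adjusted p = 0.0536), and its groups did not overlap. The DESeq2 Wald test and limma voom each called 3 of these 15 (11% and 6.07% of all genes). Of 7 genes listed as Wnt feedback targets 0 rose and Ccnd1, the cyclin D1 gene, fell (-0.32), in 12 of 17 alternative settings. Ccnd1 stands in this list as a target, and its fall is no measure of Wnt feedback. Axin2, the most general target of beta-catenin signalling, named after its value was seen, did not pass (0.15, edgeR adjusted p = 0.217). Its groups narrowly did not overlap, at 59.5 to 65.8 CPM in controls and 65.9 to 76.7 CPM in deletion libraries, as for 27.5% of all tested genes. In this list 4 of 7 had an unadjusted p under 0.05 by edgeR (22.5% of all genes). The DESeq2 Wald test called 2 of the 7 (11%) and limma voom 1 (6.07%). Of 17 planar polarity and non-canonical genes 1 rose, the cadherin gene Celsr3 (1.48, from 0.815 to 0.946 CPM in controls to 1.79 to 3.02 CPM in deletion libraries). Without cont213, 5 of 88 pathway genes passed (1.81% of all tested genes did), and 8 of 88 without mut208 (2.77%) or without mut211 (3.59%).

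**Figure D5:**
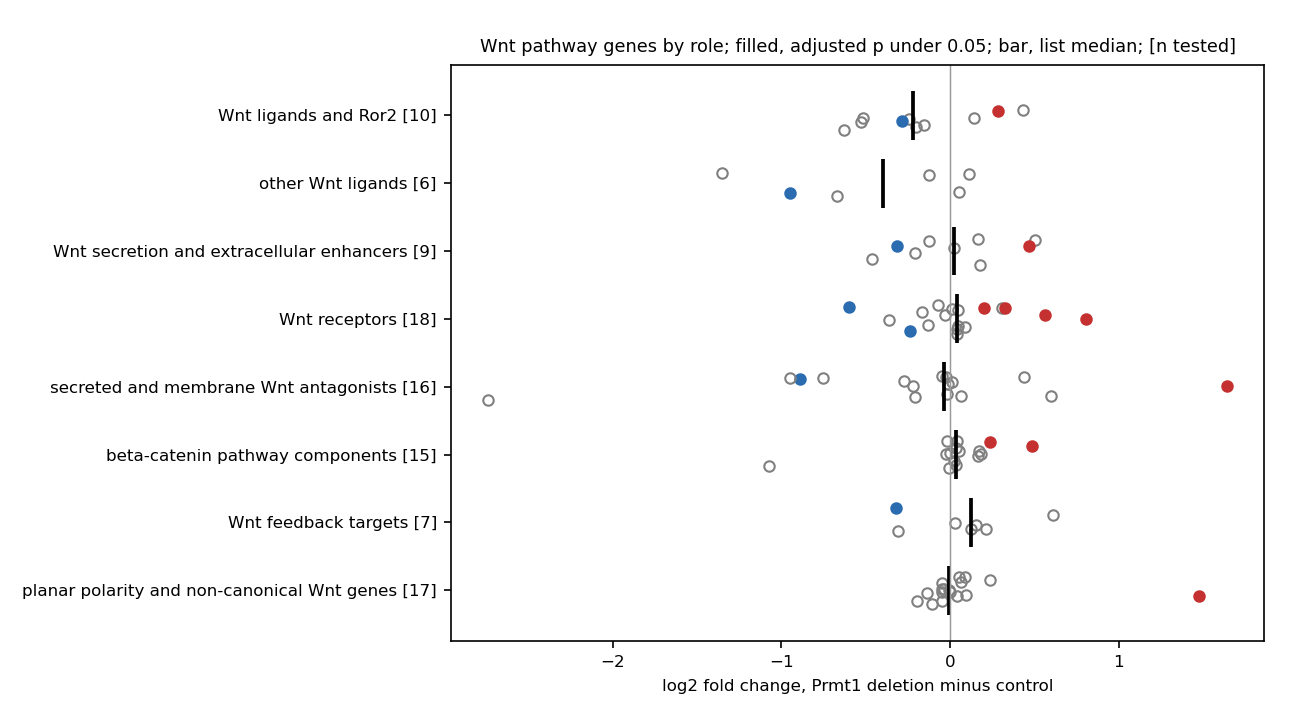
Log2 fold changes, deletion over control, of the 10 members and of other Wnt pathway genes by role, with the number tested in brackets. Filled points passed at adjusted p under 0.05, red higher and blue lower, and black bars are list medians. Receptors hold the most calls, 6 of 18.

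Among tested genes with at least 0.75 of the member's own SD over the libraries, leaving out unnamed clones and pseudogenes, the 3 whose mean-centred log2 CPM followed Wnt5a most closely over the 6 libraries were Pif1, a DNA helicase gene, Fam120c and Kitl, the KIT ligand gene. Their root mean square difference from Wnt5a was 0.0306, 0.0339 and 0.0365 on the log2 scale, where Wnt5a itself had an SD of 0.176. For Ror2 they were Jmjd7, Fjx1 and Rgl1, at 0.0353, 0.0396 and 0.0444, where Ror2 had an SD of 0.186. With 6 libraries and 19284 genes, such close profiles are a description of these libraries only.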

How the data were processed

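The members and gene lists were chosen with earlier results of these data known. The authors deposited 1 table of estimated counts (expected counts) per gene symbol, not normalized, with 23% to 23.8% of values not whole. The submitters' processing notes name mm10, STAR 2.4.1d, CASAVA 1.8.2 and Partek, without their roles. For annotation and strand setting nothing is given in the sources used here. Column names give a group but not which sample of it.

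Counts were rounded and filtered with filterByExpr (minimum count 10, minimum total 15), leaving 19284 of 49492 genes, and scaled by TMM. glmQLFit and glmQLFTest of edgeR 4.0.16 (robust=TRUE, R 4.3.3) compared 3 deletion against 3 control libraries, with p-values adjusted over all tested genes and a threshold of 0.05. SE is the fold change over the square root of F. Levels per kb use the union of GENCODE M21 exons. Named were all members, up to 3 genes of smallest p past the threshold per pathway list (2 where none passed), and 3 genes of most similar profile per called member. The fit was tested on simulated data. Alternatives included DESeq2 1.42.0, limma 3.58.1 voom, other scalings and filters, covariates, and leaving out libraries. Library pairs within a group all differed by more than counting noise (chi-square over its degrees of freedom, 7.83 to 37.9).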

Additional observations from a re-analysis of the deposited data

How the results depend on the processing

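No paired analysis was possible because the columns carry numbers that no label gives. All 10 members kept the sign of their fold change in each of the 17 settings (16 for Wnt9b, which the CPM filter removed). The count of called members is given with the share of all tested genes in the same fit. It was 2 in the full comparison (7.01%), 5 with the DESeq2 Wald test (11%), 1 with limma voom (6.07%) and 1 with robust=FALSE (6.54%). It was 0 with embryo sex (0.669%) or the globin ratio (1.52%) as a covariate, and 0 to 3 with 1 library left out (1.81% to 9.45%). The count of 15 called pathway genes became 1 with sex and 5 with the globin ratio as a covariate. It became 24 (9.39% of all tested genes) with a covariate for cont220 and mut221, which stood apart on principal component 2. With 1 library left out it was 5 to 20. Of all tested genes 0.435% to 11% passed across the settings. With sex as a covariate the fold change is set by cont220 against the deletion libraries, as in the fit without cont212 and cont213, which differs in its estimate of the spread. The 4 members that did not overlap relative to epithelial markers were 4 to 7 with 1 library left out, where fewer libraries make overlap rarer. The share of all genes on this scale was taken only with all 6 libraries (74.2%), so the counts with 1 left out are no result about the members. The cause of the other shifts was not tested. Counts were lowest for Wnt9b, with 3 to 24 per library, and its spread from depth and that between libraries were not separated.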
